A study of Mus musculus with 8 samples.

Results

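The genes described here are 10 markers of fetal liver macrophages, Cd5l, Marco, C1qa, C1qb, C1qc, Vcam1, Hmox1, Slc40a1, Axl and Mertk, listed by name with earlier results of these data known. All 10 were found by symbol, each in 1 row, among the 14268 rows (14033 symbols) of the authors' deposited comparison. RNA was sequenced from mouse embryos at E14.5, offspring of Flt3-Cre mice crossed to mTmG reporter mice, so both groups come from the same cross. In this reporter, cells make the red protein Tomato until Cre removes it and turns on green GFP, and that change is inherited by all daughter cells. Fetal liver cells without lineage markers, and with Kit and Sca1 on their surface, were sorted into a GFP+ and a Tomato+ fraction of 4 libraries each. The sample titles also name CD150, with no plus or minus sign after it. GFP+ means that Flt3-Cre was active at some time in the cell or its ancestors, and Tomato+ that no recombination took place. The labels do not say whether the libraries of a fraction came from separate embryos, pooled embryos or separate sorts. The p-values may then measure a spread that is only technical.

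Macrophages of the fetal liver sit at the centre of erythroblastic islands, where they hold maturing red cells by adhesion molecules, engulf the nuclei these cells expel, break down heme and pass iron on. They are recognised by scavenger receptors, complement C1q, enzymes of heme and iron recycling, and receptors for dying cells. The comparison here asks how the RNA of these genes differed between sorted stem-cell-like fractions with and without a history of Flt3-Cre.

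Of the 10 macrophage genes, 8 rose in GFP+ and 0 fell at the authors' adjusted p under 0.05, by the authors' deposited table. At an unadjusted p under 0.05 from the authors' DESeq comparison 10 were higher and 0 lower. Over the whole comparison 4.86% of all rows were called higher and 2.64% lower in GFP+ at the adjusted p under 0.05. The share of all rows at the unadjusted threshold was not counted, here or for the lists below. Among the 4990 rows whose overall mean lay within the range of the 10 genes (18.5 to 204 normalized counts), 4.77% were called higher and 3.75% lower. All 10 had a higher mean in GFP+, 9 of them at least 2-fold, against 4.51% of all rows. Their median log2 difference (GFP+ over Tomato+) was 2.03, with a range of 0.78 to 3.06, and the median over all rows was 0.01. The means summed over the 10 genes were 1602 normalized counts in GFP+ against 436 in Tomato+, a ratio of 3.67. In such bulk RNA, fewer cells of a type and less RNA per cell cannot be told apart.

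**Figure D1:**
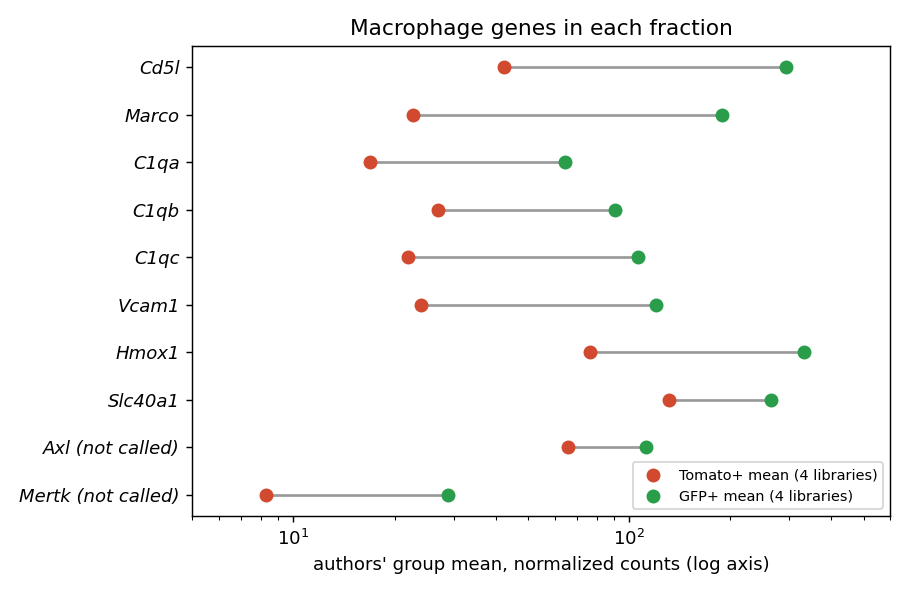
Authors' group means of the 10 macrophage genes in normalized counts (log axis), red for Tomato+ and green for GFP+, each a mean of 4 libraries with no error bar because the table gives none. The green point lies to the right of the red point for every gene, with the widest gap for Marco (8.31-fold) and the narrowest for Axl (1.71-fold).

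The values are means over libraries that the authors scaled for depth (normalized counts, called baseMean in the file). The table used here holds no value of a single library, so neither the overlap of the libraries nor their spread can be given, and their depth is unknown. All 10 genes had an overall mean under the median of all rows, which was 214. No group mean was 0 for any of the 10. Normalized counts are not corrected for gene length, so levels are compared between fractions and not between genes.

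The secreted and scavenger genes showed the largest folds of the 10. Cd5l encodes a secreted protein of the scavenger receptor cysteine-rich family that tissue macrophages release. It had an authors' mean of 294 normalized counts in GFP+ against 42.4 in Tomato+, a 6.93-fold rise (adjusted p = 1.13e-21 by the authors' deposited table). Marco encodes a class A scavenger receptor that binds bacteria and modified lipoproteins. Its means were 189 and 22.7, an 8.31-fold rise in GFP+ (adjusted p = 6.9e-17 by the authors' deposited table). Ranked by the log2 difference among all 14268 rows, Marco stood 27th and Cd5l 47th from the top, and by p-value they stood 39th and 28th.

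The genes of C1q rose together. C1qa, C1qb and C1qc encode the chains of C1q, the protein that starts the classical complement pathway and also tags dying cells, and tissue macrophages are a main source of it. C1qa had means of 64.3 in GFP+ against 16.9 in Tomato+, 3.81-fold higher (adjusted p = 0.00247 by the authors' deposited table). For C1qb the means were 90.6 and 27.0, 3.36-fold higher (adjusted p = 0.000261 by the authors' deposited table). C1qc, at 106 and 22.0, was 4.82-fold higher in GFP+ (adjusted p = 3.59e-05 by the authors' deposited table). The 3 folds lie close to each other, and differences between them were not tested.

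In RefSeq (GRCm38.p6) these genes stand side by side on chromosome 4, and promoters of C1qb and C1qc are shown as neighbours that rose together, beside those of Cd5l and Marco with the largest folds. The authors used build mm9, so the positions below belong to the RefSeq table and not to the deposited values. Each stretch starts 250 bases before a RefSeq start site, is written on the gene's strand, and ends at the start site or at the first base of an annotated exon. Capitals mark the motif GAGGAA, the core bound by the myeloid factor PU.1 and related Ets proteins, or its reverse complement. In C1qb they also mark TGACNNNGC, the core of the antioxidant response element, read on the opposite strand.
C1qb, chr4:136886201-136886450, minus strand: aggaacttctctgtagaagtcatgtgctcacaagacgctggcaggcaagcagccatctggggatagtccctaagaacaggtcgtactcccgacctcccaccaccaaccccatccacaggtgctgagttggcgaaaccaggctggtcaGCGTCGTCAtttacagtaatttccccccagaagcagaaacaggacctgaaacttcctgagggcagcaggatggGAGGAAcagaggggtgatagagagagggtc
C1qc, chr4:136893066-136893164, minus strand: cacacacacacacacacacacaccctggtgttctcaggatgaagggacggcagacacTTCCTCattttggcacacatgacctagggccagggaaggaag
Cd5l, chr3:87357631-87357880, plus strand: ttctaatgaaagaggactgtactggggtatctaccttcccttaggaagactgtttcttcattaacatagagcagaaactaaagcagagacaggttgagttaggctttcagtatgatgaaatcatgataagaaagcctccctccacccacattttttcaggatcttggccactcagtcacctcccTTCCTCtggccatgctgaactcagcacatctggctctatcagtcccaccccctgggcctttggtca
Marco, chr1:120505025-120505274, minus strand: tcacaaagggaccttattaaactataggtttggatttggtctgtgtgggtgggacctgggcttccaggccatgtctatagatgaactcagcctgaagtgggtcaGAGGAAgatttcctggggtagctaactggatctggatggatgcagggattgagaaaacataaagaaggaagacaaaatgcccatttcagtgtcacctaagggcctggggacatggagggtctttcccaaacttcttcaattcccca

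Promoter sequences of 6 of the 10 genes were at hand (Axl, C1qb, C1qc, Cd5l, Marco and Mertk). Sequences of C1qa, Vcam1, Hmox1 and Slc40a1 were not used here. In windows of 300 bases (250 before and 50 after the start), searched on both strands, GAGGAA was found in 5 of the 6 genes, all except Mertk, and in 28.3% of all 32851 RefSeq promoters. TGACNNNGC was found in C1qb alone of the 6 and in 12.4% of all promoters. TGAGTCA, the AP-1 core, CACGTG, the E-box, and AGATAA, a form of the site of GATA factors, were in none of the 6. Their shares of all promoters were 5.2%, 7.15% and 11.2%. Other forms of the GATA site were not searched. None of the 5 motifs contains another. A match describes letters in a window and shows no binding.

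Vcam1, the adhesion molecule that binds integrin alpha 4 beta 1 on erythroblasts, had means of 120 in GFP+ against 24.0 in Tomato+, 5.02-fold higher (adjusted p = 9.43e-07 by the authors' deposited table). Vcam1 is made by endothelial and stromal cells as well as by macrophages. Of 12 measured endothelial genes 0 were called higher and 9 lower in GFP+, against 4.86% and 2.64% of all rows. At an unadjusted p under 0.05 from the authors' DESeq comparison the counts were 0 and 10. Tek and Esam of that list also stand in the stem cell list. Of 6 measured stellate and mesenchymal genes 0 were called, and 2 were higher and 1 lower at an unadjusted p under 0.05 from the authors' DESeq comparison. Those 2 were Pdgfrb, a receptor of stromal cells, at 241 and 150, and Reln, a secreted glycoprotein, at 23.4 and 5.49 (adjusted p = 0.0869 for Pdgfrb and 0.0974 for Reln by the authors' deposited table). The part of either cell type in the Vcam1 result was not tested. Neither integrin chain that binds Vcam1 was called. Itga4 had 3180 normalized counts in GFP+ against 3800 in Tomato+, and Itgb1 2280 and 2350, and neither passed (adjusted p = 0.107 for Itga4 and 0.952 for Itgb1 by the authors' deposited table).

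Of the remaining island adhesion genes, 1 of 15 rose and 0 fell, a share of 6.67% against 4.86% of all rows, with a median log2 of 0.03. At an unadjusted p under 0.05 from the authors' DESeq comparison 2 were higher and 4 lower. The 1 that rose was Sdc1, a heparan sulfate proteoglycan, at 342 and 228 (adjusted p = 0.0306 by the authors' deposited table). Siglec1, the sialic acid receptor of island macrophages known as CD169, had means of 24.1 and 5.11, 4.72-fold higher in GFP+, and did not pass (adjusted p = 0.0889 by the authors' deposited table). Palld, an actin-binding protein that macrophages need for island formation, had 140 and 223 (adjusted p = 0.0595 by the authors' deposited table).

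Both recycling genes rose, Hmox1 by the larger fold. Hmox1, heme oxygenase 1, opens the heme ring and sets the iron free. It had means of 332 normalized counts in GFP+ against 76.2 in Tomato+, a 4.36-fold rise (adjusted p = 8.57e-16 by the authors' deposited table). Slc40a1 encodes ferroportin, the transporter through which cells export iron. Its means were 265 and 131, 2.02-fold higher in GFP+ (adjusted p = 2.5e-05 by the authors' deposited table), the smallest fold among the 8 genes that rose.

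Of 23 other measured genes of heme and iron handling 6 rose (26.1%, against 4.86% of all rows) and 1 fell, with a median log2 of 0.08. The ferritin subunits that store iron, Fth1 and Ftl1, rose 1.38-fold and 1.48-fold by the authors' deposited table. Lrp1, a receptor that takes up heme bound to hemopexin among many ligands, rose 2.78-fold from 178 to 495 (adjusted p = 1.84e-12 by the authors' deposited table). Tfrc, the transferrin receptor through which erythroblasts take up iron, rose 1.35-fold, while Tfr2, the second transferrin receptor, fell 4.1-fold from 568 to 139 by the authors' deposited table. Hmox2, the constitutive heme oxygenase, and Slc48a1, a heme transporter, had log2 values of 0.02 and -0.22 and were not called by the authors' deposited table. Trf, transferrin, and Blvrb, a biliverdin reductase, were also called higher, at 1.62-fold and 1.13-fold by the authors' deposited table. Tfrc is counted in the erythroid list too, and Trf in the hepatoblast list. Fth1, Ftl1, Hmox2, Slc48a1, Trf and Blvrb were chosen after their values were seen.

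The receptors for dying cells were the 2 genes that did not pass. Axl and Mertk are receptor tyrosine kinases of the TAM family, which bind phosphatidylserine on dying cells and expelled nuclei through the bridging proteins Gas6 and protein S. Axl had means of 112 in GFP+ against 65.6 in Tomato+, a 1.71-fold difference (p = 0.00999, adjusted p = 0.102 by the authors' deposited table). Mertk had 28.8 and 8.27, a 3.48-fold difference (p = 0.0123, adjusted p = 0.12 by the authors' deposited table). Mertk had the lowest overall mean of the 10, 18.5 normalized counts, and its log2 difference of 1.8 was 1.09 with 10 normalized counts added to both means.

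None of the ligands and receptors that work with Axl and Mertk was called. Tyro3, the remaining TAM receptor, had means of 21.6 in GFP+ against 32.6 in Tomato+ (adjusted p = 0.885 by the authors' deposited table). Gas6 had 16.1 and 15.0, and Pros1, which encodes protein S, 51.8 and 82.0, and neither passed (adjusted p = 0.965 for Gas6 and 0.366 for Pros1 by the authors' deposited table). Of 25 measured TAM ligand, adaptor and other engulfment genes 0 rose and 1 fell, with a median log2 of 0.03. Over all rows 4.86% were called higher and 2.64% lower, so few calls would be met in any list of this size. At an unadjusted p under 0.05 from the authors' DESeq comparison 1 was higher and 3 were lower. The 1 that fell was Itgb3, the integrin beta 3 chain, which platelets also carry, 2.55-fold lower in GFP+ at 108 against 276 (adjusted p = 4.46e-11 by the authors' deposited table). Dock1, an engulfment adaptor, had 223 and 337 (adjusted p = 0.0583 by the authors' deposited table). This list leaves out Timd4, a phosphatidylserine receptor counted with the macrophage markers below, which rose 8.03-fold by the authors' deposited table. Tyro3, Gas6, Pros1 and Timd4 were chosen after their values were seen.

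**Figure D2:**
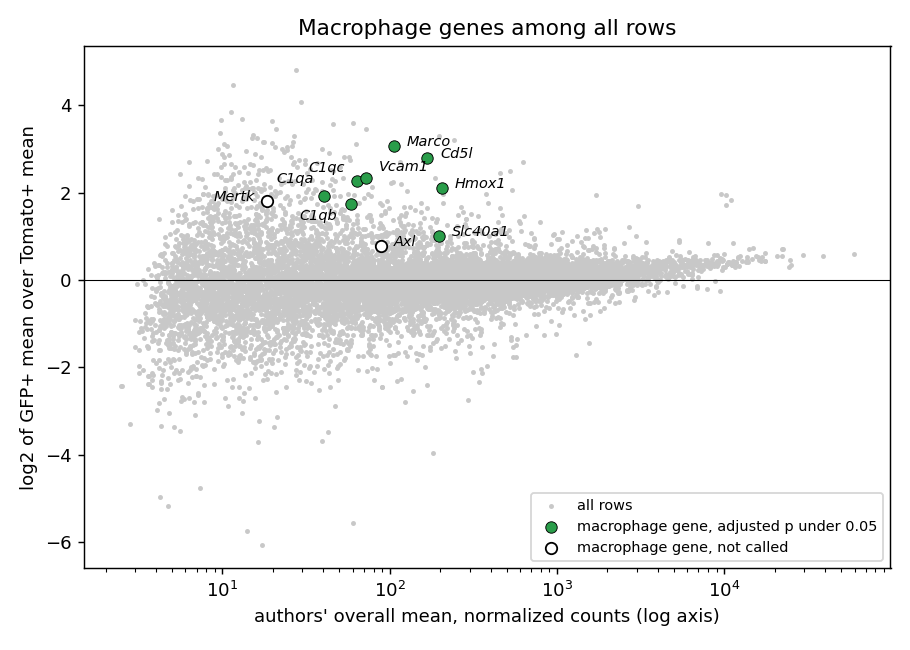
Log2 of the GFP+ mean over the Tomato+ mean against the overall mean in normalized counts (log axis) for all 14268 rows (grey) and the 10 macrophage genes (green where adjusted p was under 0.05, white where not). The 10 genes lie between 0.78 and 3.06 on the log2 scale, above the median of all rows at 0.01.

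Of 23 other measured macrophage markers, 8 rose and 0 fell (34.8%, against 4.86% of all rows), with a median log2 of 1.23 and 21 above 0. At an unadjusted p under 0.05 from the authors' DESeq comparison 12 were higher and 0 lower. The list and the 10 genes were chosen with earlier results of these data known. Csf1r, the receptor for the macrophage growth factor CSF1, rose 2.34-fold, from 150 to 353 (adjusted p = 3.87e-06 by the authors' deposited table). Adgre1, the F4/80 antigen, listed under its older symbol Emr1, rose 4.42-fold from 29.1 to 128 (adjusted p = 2.81e-06 by the authors' deposited table). Lgmn, a lysosomal protease, rose 3.39-fold, from 69.6 to 236, by the authors' deposited table. Fcna, a ficolin of liver macrophages, rose 6.71-fold from 15.0 to 101 (adjusted p = 3.88e-08 by the authors' deposited table).

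Chosen after their values were seen, Timd4, a phosphatidylserine receptor, and Clec4f, a lectin of Kupffer cells, rose from low Tomato+ means of 5.01 and 3.49, by 8.03-fold and 8.99-fold per the deposited comparison of the authors. Mpeg1 and Ctss, a perforin-like protein and a lysosomal protease, rose 3.19-fold and 3.84-fold by the authors' deposited table. These complete the 8 that rose. The other 15 were not called. Slc11a1, a phagosome metal transporter, had a log2 of 2.19 and Tyrobp, an adaptor of myeloid receptors, 0.6 (adjusted p = 0.059 for Slc11a1 and 0.151 for Tyrobp by the authors' deposited table). Itgam (CD11b) had a log2 of 0.04, Lyz2 (lysozyme) -0.21, Fcgr3 0.08, Cd68 0.15 and Mrc1, the mannose receptor, -0.48 by the authors' deposited table. These 7 were also chosen after their values were seen. Cd163, Vsig4 and Ms4a7 of the list were not matched to a row.

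Transcription factors of macrophages were not among the rises. Of 15 measured 0 rose and 1 fell, beside 4.86% and 2.64% of all rows. At an unadjusted p under 0.05 from the authors' DESeq comparison 3 were higher and 2 lower. The median log2 was 0.19, and 9 values were above 0. Spic, the Ets factor of iron-recycling macrophages, had low means of 13.5 in GFP+ against 5.04 in Tomato+ (adjusted p = 0.527 by the authors' deposited table). Spi1, which encodes PU.1 and is listed as Sfpi1, had 1060 and 821 (adjusted p = 0.115 by the authors' deposited table). The 1 factor that fell was Tfec, listed as Tcfec, 2.13-fold lower in GFP+ at 68.3 against 145 by the authors' deposited table.

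Among other complement genes 2 of 17 rose (11.8%, against 4.86% of all rows) and 1 fell, with a median log2 of 0.35. At an unadjusted p under 0.05 from the authors' DESeq comparison 6 were higher and 1 lower. Cfp, properdin, rose 1.7-fold and C3, the central complement protein, 1.99-fold, while Cd55, a surface inhibitor of complement, fell 2.42-fold by the authors' deposited table. C1ra, the gene of the protease C1r, also picked after seeing its values, stood at 11 and 24.8 and was not called (adjusted p = 0.709 by the authors' deposited table).

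Of 14 other scavenger and pattern recognition receptors 2 rose (14.3%, against 4.86% of all rows) and 2 fell, with a median log2 of 0. Tlr7, a sensor of single-stranded RNA, rose 3.94-fold from 30.0 to 118 by the authors' deposited table. Clec4n, a lectin of myeloid cells picked after seeing its values, rose 6.38-fold by the authors' deposited table. Stab2 and Stab1, scavenger receptors of liver sinusoidal endothelium, fell 4.12-fold and 2.13-fold by the authors' deposited table. Stab1 is also made by some macrophages.

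**Figure D3:**
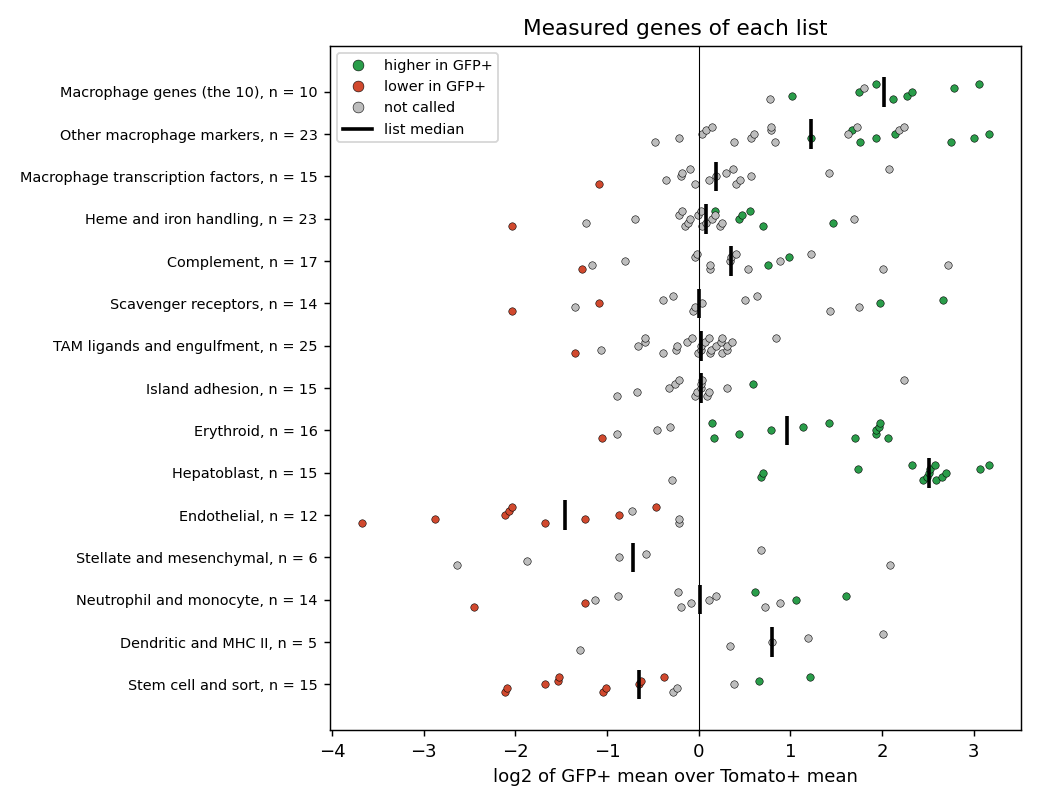
Log2 of the GFP+ mean over the Tomato+ mean for each measured gene of the 15 lists, coloured by the authors' call (adjusted p under 0.05), with a black bar at the list median and dots spread vertically for legibility. The 10 macrophage genes have a median of 2.03, hepatoblast genes 2.51 and endothelial genes -1.46, and lists of transcription factors, engulfment and island adhesion genes lie near 0.

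Markers of other fetal liver cells moved in the same comparison. Of 15 measured hepatoblast genes 14 rose (93.3%, against 4.86% of all rows) and 0 fell, with a median log2 of 2.51. The counts were the same at an unadjusted p under 0.05 from the authors' DESeq comparison. The 1 not called was Dlk1, at 811 in GFP+ against 993 in Tomato+ (adjusted p = 0.311 by the authors' deposited table). Dlk1 had the largest Tomato+ mean of the list. The means of the 15 hepatoblast genes, Dlk1 among them, summed to 4043 normalized counts in GFP+ against 2031 in Tomato+. Alb, albumin, had 774 and 142 by the authors' deposited table. Among the 16 measured erythroid genes 12 were called higher (75%, against 4.86% of all rows) and 1 lower (against 2.64%). Their median was 0.96, with sums of 44120 and 16920. The erythroid gene Slc4a1, the red cell anion exchanger, rose 3.83-fold by the authors' deposited table. Rhag and Car2 were called higher at only 1.11-fold and 1.13-fold. The globin genes Hbb-b1 and Hba-a2 supplied 15600 and 16100 of the GFP+ sum. Gata1 was the 1 that fell, at 135 in GFP+ against 281 in Tomato+. Klf1 and Epor had log2 values of -0.46 and -0.89 and were not called. Dlk1, Rhag, Car2, Gata1, Klf1 and Epor were chosen after their values were seen. Erythroblasts are the cells around an island macrophage, and hepatoblasts are other cells of the fetal liver. The median of the 10 macrophage genes lay between those of the 2 lists, and the part of these cells in the macrophage result was not tested.

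Other lists were lower in GFP+ or mixed. The endothelial list had sums of 2876 and 5421 and a median of -1.46. The stellate and mesenchymal list had sums of 279 and 202 and a median of -0.72. Of 14 neutrophil and monocyte genes 3 rose (21.4%, against 4.86% of all rows) and 2 fell (against 2.64%), with a median of 0.01. Among 5 dendritic and MHC class II genes 0 were called, with a median of 0.8. At an unadjusted p under 0.05 from the authors' DESeq comparison 1 of these 5 was higher. The stem cell and sort list, which gives the labelled identity of the cells, had 15 of 15 genes measured. Of these 2 rose (13.3%, against 4.86% of all rows) and 10 fell (against 2.64%). The 2 that rose were Flt3, 2.32-fold from 1620 to 3750, and Cd34, 1.58-fold from 3790 to 5970 (adjusted p = 2.03e-19 for Flt3 and 0.000103 for Cd34 by the authors' deposited table). Of the genes of the sort antigens, Slamf1, which encodes CD150, fell 4.24-fold in GFP+, at 27.9 against 119 (adjusted p = 4.95e-08 by the authors' deposited table). Kit had means of 4090 in GFP+ against 4950 in Tomato+, and Ly6a, which encodes Sca1, 59.5 and 70.1, and neither passed (adjusted p = 0.187 for Kit and 0.872 for Ly6a by the authors' deposited table). Cd34, Slamf1, Kit and Ly6a were chosen after their values were seen. No measured gene of these lists had a mean of 0 in either fraction.

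Position on the chromosome is a property that the choice of genes did not use. Most neighbours were not called, but the same holds for most rows, since 1069 of 14268 were called in either direction. The nearest measured protein-coding gene on each side in RefSeq GRCm38.p6, within 100 kb, was read for each of the 10 genes, a choice made after the data were seen. The 10 genes themselves were passed over, so the C1q genes, which neighbour each other, share Ephb2 and Zbtb40. It gave 11 neighbours of 9 genes, since Marco had none within that distance. Of these 2 rose (18.2%, against 4.86% of all rows), 0 fell and 9 were not called, with a median log2 of 0.01. Ephb2, an ephrin receptor kinase next to the C1q genes, rose from 70.0 to 213 (adjusted p = 8.48e-06 by the authors' deposited table). Zbtb40, on the other side of the C1q genes, had 223 in GFP+ against 258 in Tomato+ (adjusted p = 0.952 by the authors' deposited table). Fcrl1, an Fc receptor-like gene of B cells next to Cd5l, rose from 16.0 to 72.5 (adjusted p = 0.00391 by the authors' deposited table). Fcrls, on the other side of Cd5l, had 3.37 and 3.35 normalized counts. The neighbours of Hmox1, Tom1 and Mcm5, had log2 values of -0.16 and 0.15, and Extl2 beside Vcam1 had -0.04 by the authors' deposited table.

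**Figure D4:**
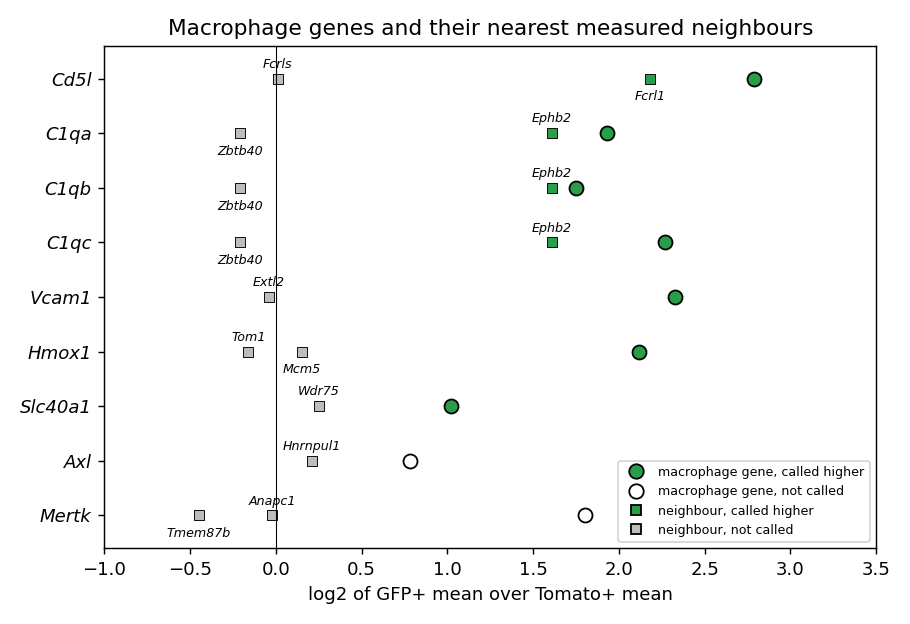
Log2 of the GFP+ mean over the Tomato+ mean for each macrophage gene (circles) and its nearest measured neighbours outside the 10 within 100 kb in RefSeq GRCm38.p6 (squares, named), green where the authors' adjusted p was under 0.05. Of the 11 neighbours Ephb2 and Fcrl1 are called higher, and the other 9 lie between -0.45 and 0.25.

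Scaling both fractions to the same summed mean lowers every log2 value by 0.16, because the means summed to 7926897 in GFP+ against 7111170 in Tomato+. All 10 macrophage genes stayed above 0 under it, from 0.62 for Axl to 2.9 for Marco. The medians of the iron, scavenger, engulfment, island adhesion, and neutrophil and monocyte lists, which lie within 0.16 of 0, fall below 0 under that scaling.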

How the data were processed

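RNA-seq was made from 8 libraries, 4 GFP+ and 4 Tomato+, of Trizol-extracted total RNA, per the labels. The submitters' processing notes name Bowtie2 2.2.1 and TopHat2 2.0.11, as well as TopHat, DESeq and bedtools, and the build mm9, without roles. Counting rules and DESeq settings are not given in sources used here. Each row of the table that the authors deposited holds, per the file headers, a signal (baseMean, the normalized count averaged over all libraries or over a group), a fold change as a ratio, the log2 of that ratio, a p-value and its adjusted form. Recomputing showed that the authors' ratio is Tomato+ over GFP+ (within a relative 7.8e-07), so the sign was turned. Their adjusted p-value is the Benjamini-Hochberg adjustment over all 14268 rows (within 5.3e-08). The 1 repeated header line was dropped, and for each symbol the row of highest mean was read.

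No test was run on libraries, since only group means were at hand. Members, lists and alternatives were chosen with earlier results of these data known. Of 254 listed genes 213 matched a row, 7 through an older RefSeq symbol. Genes named are the 10 members, Csf1r, Adgre1, Spic and, in each of the 14 other lists, the 3 with the smallest p-value. Some of these are not printed, and any other gene is a neighbour or was chosen after its values were seen. Python 3.11.15, pandas 2.3.3 and matplotlib 3.10.9 were used. The adjustment and the motif search were tested on simulated data.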

Additional observations from a re-analysis of the deposited data

How the results depend on the processing

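No paired analysis was possible because only group means were at hand. Leaving out single libraries, a replicate block and other count tools could not be run either, and unknown library depth leaves genes of low mean such as Mertk uncertain. The count of 8 macrophage genes higher in GFP+ stayed at 8 with an adjusted p under 0.1 or 0.01, when a log2 of 1 or more was also asked for, and with 1 row per symbol. It was 7 when rows with means under 50 were dropped, which removes C1qa and Mertk, and 6 with a Bonferroni adjustment. Their median log2 of 2.03 was 1.99 and 1.66 with 1 and 10 normalized counts added to both means, 1.87 with equal totals, 2.0 when centred on the median of rows reaching a mean of 50, and 2.2 for the members that reach it. All 40 recomputed values of single members were above 0, from 0.62 to 3.02. Of 56 recounts of the other lists 47 were within 1.5 times the count in the text, and the other 9 were small counts. At 0.01, with fewer calls by construction, complement and island adhesion genes called higher went from 2 to 0 and 1 to 0, scavenger genes from 2 to 1, and erythroid genes called lower from 1 to 0. At 0.1 the TAM and engulfment genes called lower went from 1 to 2, island adhesion genes from 1 to 2 higher and 0 to 1 lower, and stellate and dendritic genes called higher from 0 to 2 and 0 to 1. Matches of 5 motifs in 6 promoters numbered 6 on both strands and 2 on the gene's strand alone, a search of fewer letters.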
